A study of Rattus norvegicus with 6 samples.

Results

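The carriers that move bile acids and other organic anions across the hepatocyte membrane were examined in rat liver after transplantation of faecal microbiota from DHEA-treated or control donors. The group was defined by name as 10 genes, namely Slc10a1, Abcb11, Abcb4, Abcc2, Abcc3, Slco1a1, Slco1a4, Slco1b2, Slc51a and Slc51b. Of the 30957 genes in the count table, 9 bore one of these names, and 7 of them were among the 12210 genes with enough counts to be tested. Abcb4, the canalicular phospholipid floppase, was not analysed here because no row carried its name. Slc51a and Slc51b lay under the filter on low counts.

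All recipients were female Sprague Dawley rats, bought at 3 weeks of age and kept 2 per cage. Before transplantation both groups received the same cocktail of ampicillin, neomycin, metronidazole and vancomycin, in 3 courses of 7 days. They were then gavaged daily for 14 days with faecal pellets of donors injected with PBS (t-PBS) or with dehydroepiandrosterone (t-DHEA), an androgen precursor used to induce a polycystic ovary-like state. The recipients themselves were not injected with DHEA. The paper did not detect DHEA in donor faeces, but found more DHEA sulphate in those of DHEA-treated than of PBS-treated donors. It judged these levels far too low to elicit the phenotype, and states that this sulphate was transferred along with the microbiota. The part of DHEA sulphate in the values here was not tested. Pellets were pooled within a donor group and rats shared cages, so the 3 livers sequenced per group had a common inoculum and the p-values measure the spread between these livers only. Library totals were 13031722 to 14316886 counts in t-PBS and 12348511 to 13529414 counts in t-DHEA, and a floor of 3 counts corresponded to 0.21 to 0.243 CPM (TMM-normalised counts scaled to a fixed library size) in a liver. The summed CPM of 5 hepatocyte markers was 150400 to 166800 in t-PBS and 158300 to 178300 in t-DHEA livers. Of 4 kidney tubule markers, Slc34a1, Umod and Slc22a6 were at 0 in all livers and Lrp2 was at 10.4 to 14.97 CPM. Of 5 enterocyte markers, Fabp6 was at 0 in all livers, Vil1 and Slc10a2 had at most 4 counts in a liver, Fabp2 was at 1.844 to 2.243 CPM in t-PBS and 2.477 to 3.067 CPM in t-DHEA livers, and Apoa4 was at 474.6 to 1260 CPM.

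Bile acids circulate between the liver and the intestine. At the sinusoidal membrane, which faces the blood, hepatocytes take up conjugated bile acids through the sodium-dependent carrier Slc10a1 (NTCP), and a wide range of organic anions, steroid conjugates and drugs through the sodium-independent Slco (OATP) carriers. At the canalicular membrane the ATP-driven pumps Abcb11 (BSEP) and Abcc2 (MRP2) export bile salts and glucuronide or glutathione conjugates into bile. Abcc3 (MRP3) and the heteromer of Slc51a and Slc51b (OST) return bile acids and conjugates to blood, and are known for low levels in normal rat liver and for induction in cholestasis.

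Levels were compared between genes on the FPKM scale, which the authors had divided by gene length. In t-PBS livers, the mean FPKM was 414.6 ± 46.69 (SD, n = 3) for Slco1b2 and 362.8 ± 44.67 for Slc10a1. The 2 canalicular pumps followed, Abcc2 at 229.9 ± 19.25 FPKM and Abcb11 at 154.7 ± 6.231 FPKM. Next came Slco1a1 at 92.12 ± 14.25 FPKM and Slco1a4 at 57.78 ± 16.85 FPKM, and Abcc3 was far below them at 0.7819 FPKM. In t-PBS livers the ranges of Slco1b2 and Slc10a1 overlapped, as did those of Slco1a1 and Slco1a4. In t-DHEA livers each gene in this order down to Abcc3 was above the next one in every liver. By mean FPKM over the 6 livers, Slco1b2 ranked 125 among 17187 genes with a count, Slc10a1 ranked 167, and Abcc3 ranked 11200.

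**Figure D1:**
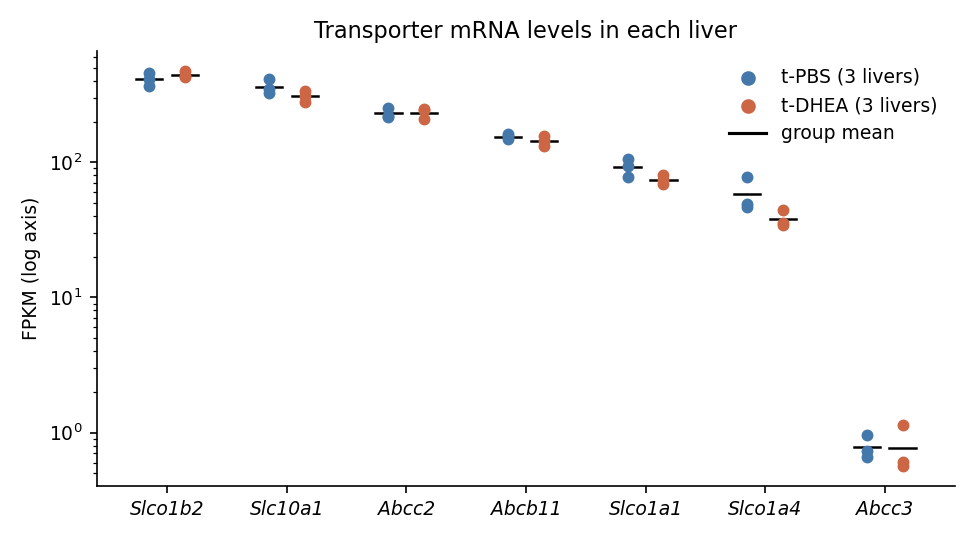
Authors' FPKM of the 7 transporters tested, on a log axis, with 1 point per liver (3 t-PBS, 3 t-DHEA) and a bar at each group mean. The 2 uptake carriers Slco1b2 and Slc10a1 lay highest in both groups, and Abcc3 lay below 1.2 FPKM in all 6 livers.

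The comparison of t-DHEA with t-PBS asked whether the mRNA of these carriers differed with the donor of the transplant. Counts were compared with edgeR's quasi-likelihood test, and a gene was called where the fold-change was above 1.2 with an unadjusted p below 0.05. Both thresholds follow the criteria of the study. Among the 7 transporters, 1 (Slco1a4) was called lower and 0 were called higher, where 2.98% of all genes tested were called lower, 1.97% were called higher and 4.95% were called in either direction. None of the 7 transporters, and 0 of the 12210 genes, had a Benjamini-Hochberg adjusted p below 0.05 in edgeR. In DESeq2 24 genes of the table passed that threshold, with no transporter among them. In edgeR 1 of the 7 transporters had an unadjusted p below 0.05. The log2 fold changes were positive for 3 and negative for 4 transporters, with a median of -0.075, beside 0.0013 for all genes tested. The CPM of the groups overlapped for each of the 7 transporters, while 10.1% of all genes tested had groups that did not overlap. In whole liver, fewer cells of a type and less RNA per cell cannot be told apart.

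**Figure D2:**
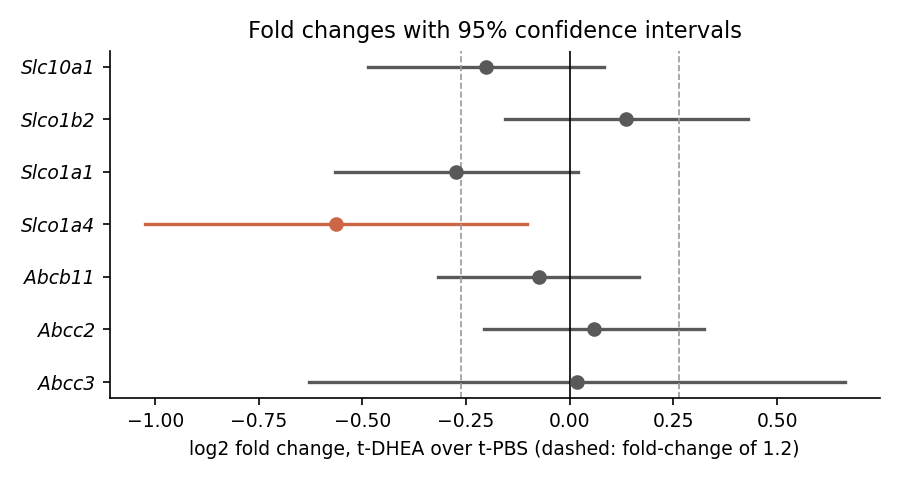
Log2 fold change of t-DHEA over t-PBS with its 95% confidence interval from edgeR's quasi-likelihood fit (3 livers per group), with dashed lines at a fold-change of 1.2. The interval excluded 0 for Slco1a4 alone (-1.03 to -0.10), and reached from -0.63 to 0.66 for Abcc3.

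Slco1a4 (ENSRNOG00000047493, chromosome 4, 175969549 to 176026163 in Rnor_6.0) encodes Oatp1a4, a sinusoidal carrier of organic anions and of cardiac glycosides such as digoxin. In t-PBS livers, listed here and below in the order of rats 1, 2 and 3, it had 226.6, 207.4 and 354.4 CPM. The t-DHEA livers had 208.8, 164.5 and 160.1 CPM. The third t-PBS liver stood well above the other two, and t-DHEA rat 1 was just above t-PBS rat 2, so the groups overlapped. On the FPKM scale all 3 t-DHEA livers (34.48 to 44.58) were below all 3 t-PBS livers (46.99 to 77.19). The share of all genes whose groups did not overlap in FPKM was not computed, so this separation has no background to be read against. The fitted log2 fold change was -0.56 ± 0.20 (SE), with a 95% interval of -1.03 to -0.10, and the adjusted p in edgeR was 0.930. The call was lost without t-PBS rat 3, where the log2 fold change was -0.29. It was also lost without t-DHEA rat 2, at -0.51, or t-DHEA rat 3, at -0.49, since the unadjusted p then rose above 0.05.

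Slco1a1 (ENSRNOG00000036984, chromosome 4, 176158640 to 176231344) encodes Oatp1a1, a sinusoidal carrier of bile acids, steroid sulphates and bromosulphophthalein. Counts per liver gave 238.3, 202.6 and 173.5 CPM in t-PBS and 169.8, 182.2 and 156.1 CPM in t-DHEA. The lowest t-PBS liver lay within the t-DHEA range, and the highest values came from t-PBS rats 1 and 2. At -0.27 ± 0.13 (SE), its log2 fold change had a 95% interval of -0.57 to 0.02 (adjusted p = 0.969, edgeR). Slco1a1 was called lower in limma on log2(FPKM + 0.1), with a log2 fold change of -0.30, and in edgeR without t-PBS rat 3, at -0.38. Although both genes had negative fold changes, they varied differently between livers. The ratio of Slco1a4 to Slco1a1 in FPKM was 0.4659, 0.5015 and 1.001 in t-PBS and 0.6024, 0.4423 and 0.5021 in t-DHEA livers, and t-PBS rat 3 was the only one in which Slco1a4 reached Slco1a1.

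Slco1a4 and Slco1a1 are neighbours in the Slco1 cluster, which held 6 rows named Slco1, among 16 rows in all, between bases 175729726 and 176528110 of chromosome 4 in Rnor_6.0. Slco1b2, Slco1a4 and Slco1a1 carried nearly all of its counts. Slco1a2 had 36 counts over the 6 livers, and Slco1c1 and Slco1a6 were listed at 0. Short rows named 7SK and U4 overlapped Slco1a4 and 7SK overlapped Slco1a1, with 9 and 3 counts over all livers, which is 0.051% and 0.02% of the counts of these 2 transporters. Since these carriers are close paralogs and the handling of reads shared by paralogs is not given in the sources used here, a part of either gene's counts may belong to the other.

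The start regions of these 2 genes are shown because the genes are neighbours whose values differed between livers. They were taken from RefSeq on GRCr8 and run from 250 bases before to 50 bases after the gene start. Slco1a1 is at chr4:176681943-176682242 and Slco1a4 at chr4:176495797-176496096, both on the minus strand and written 5′ to 3′. Capitals mark bases that were identical in a global alignment of the 2 sequences.
Slco1a1: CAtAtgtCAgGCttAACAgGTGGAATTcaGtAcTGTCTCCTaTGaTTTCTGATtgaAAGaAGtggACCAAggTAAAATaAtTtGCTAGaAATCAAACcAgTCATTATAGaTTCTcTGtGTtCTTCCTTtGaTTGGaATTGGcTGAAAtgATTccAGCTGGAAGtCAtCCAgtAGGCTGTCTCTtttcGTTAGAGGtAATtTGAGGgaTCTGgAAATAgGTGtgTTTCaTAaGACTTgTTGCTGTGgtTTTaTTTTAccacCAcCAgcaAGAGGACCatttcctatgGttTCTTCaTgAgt
Slco1a4: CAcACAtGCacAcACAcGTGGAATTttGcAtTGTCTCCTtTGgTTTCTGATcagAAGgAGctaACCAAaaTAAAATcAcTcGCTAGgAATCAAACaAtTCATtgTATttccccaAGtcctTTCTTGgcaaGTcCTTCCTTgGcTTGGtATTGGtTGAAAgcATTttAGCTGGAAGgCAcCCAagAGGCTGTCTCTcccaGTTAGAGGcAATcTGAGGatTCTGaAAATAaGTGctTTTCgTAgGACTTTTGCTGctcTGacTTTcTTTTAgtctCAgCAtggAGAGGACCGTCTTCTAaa
They shared 213 of 300 bases, an identity of 71.0%. The other 27 pairs among the 8 transporters with a RefSeq start region were 51.3% to 63.0% identical, with a median of 58.0%.

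Slco1b2 (ENSRNOG00000030538, chromosome 4, 175814118 to 175881768) encodes Oatp1b2, the rodent counterpart of the human liver OATP1B carriers, and takes up bile acids, bilirubin conjugates and statins. Its CPM was 1486, 1135 and 1332 in t-PBS and 1562, 1404 and 1378 in t-DHEA livers. The t-DHEA livers were close together and t-PBS rat 1 lay between them. Its log2 fold change was 0.14 ± 0.13 (SE), with a 95% interval of -0.16 to 0.43 (adjusted p = 0.986, edgeR). It was the highest of the 7 transporters and did not pass the test.

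Slc10a1 (ENSRNOG00000005794, chromosome 6, 104617730 to 104631355) had a CPM of 545.8, 557.8 and 686.5 in t-PBS and 471.1, 522.3 and 562.0 in t-DHEA livers. T-PBS rat 3 was highest, as for Slco1a4, and t-DHEA rat 3 lay above both other t-PBS livers. The difference was -0.20 ± 0.13 (SE) on the log2 scale, with a 95% interval of -0.49 to 0.08 (adjusted p = 0.986, edgeR).

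**Figure D3:**
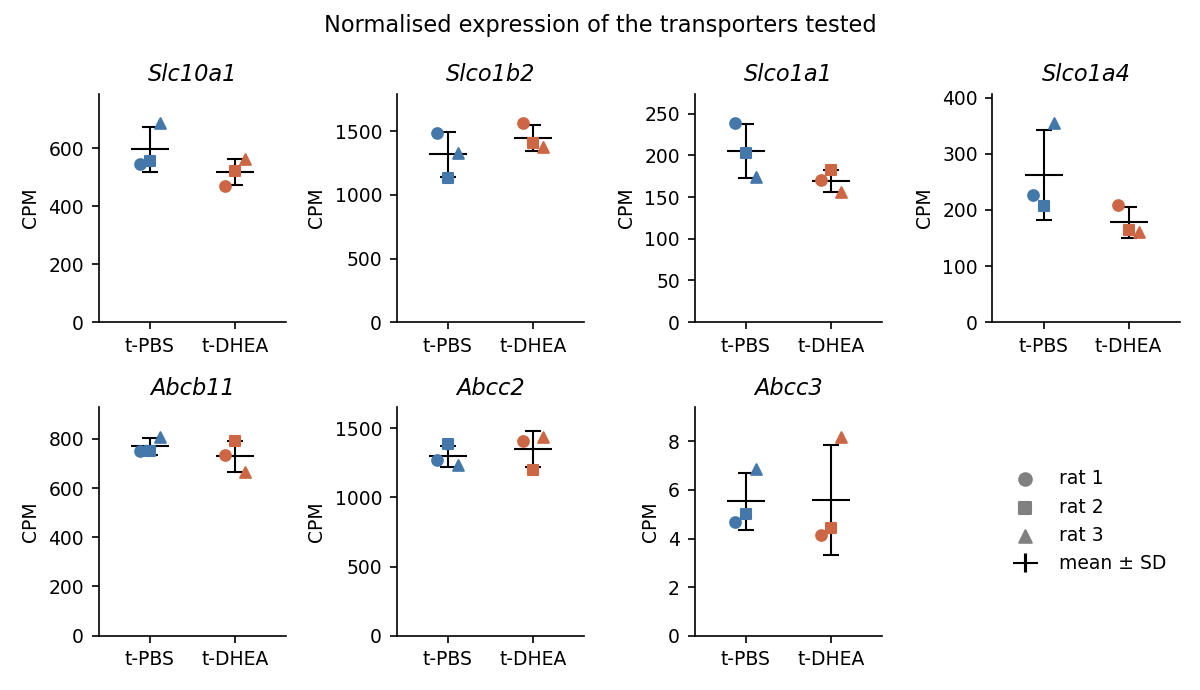
TMM-normalised CPM of the 7 transporters tested, with 1 point per liver, the rat number as the symbol, and the mean with SD as lines (n = 3 per group, axes from 0). In the Slco1a4 panel t-PBS rat 3 (354.4 CPM) stands above all other livers, and in every panel the groups overlap.

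The start regions of Slc10a1 (chr6:106357895-106358194, minus strand, GRCr8) and Slco1b2 (chr4:176282334-176282633, plus strand, GRCr8) are shown as the most abundant carriers. Capitals mark matches on either strand to AGGTCA, the half-site of many nuclear receptors, and to GTTAAT, a half-site of HNF1 factors. These 2 motifs did not overlap each other in either sequence.
Slc10a1: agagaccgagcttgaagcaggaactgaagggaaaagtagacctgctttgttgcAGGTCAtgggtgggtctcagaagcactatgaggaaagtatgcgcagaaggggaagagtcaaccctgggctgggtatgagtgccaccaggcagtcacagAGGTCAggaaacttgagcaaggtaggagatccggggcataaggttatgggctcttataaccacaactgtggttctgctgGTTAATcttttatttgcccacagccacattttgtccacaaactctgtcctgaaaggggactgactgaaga
Slco1b2: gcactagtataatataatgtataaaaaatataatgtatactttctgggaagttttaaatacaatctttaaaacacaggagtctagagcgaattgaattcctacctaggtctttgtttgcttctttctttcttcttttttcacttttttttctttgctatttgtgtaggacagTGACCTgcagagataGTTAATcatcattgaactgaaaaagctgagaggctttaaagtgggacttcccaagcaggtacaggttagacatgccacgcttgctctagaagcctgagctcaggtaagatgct
AGGTCA was found in 4 of the 8 transporter start regions (Slc10a1, Abcc2, Slco1b2 and Slc51b) and in 16.2% of 33469 rat start regions of the same length. GTTAAT was found in 3 of the 8 (Slc10a1, Abcc2 and Slco1b2) and in 7.45% of all. In Slc10a1 the AGGTCA matches began 197 and 99 bases before the start, and the GTTAAT match 20 bases before it. In Slco1b2 the AGGTCA match began 78 and the GTTAAT match 63 bases before the start. The inverted repeat AGGTCANTGACCT, a form bound by FXR with its partner RXR, was in 0 of the 8 and in 0.0269% of all start regions. Neither half-site was found in the Slco1a1 or Slco1a4 window. A match is a description of the letters, and binding was not measured.

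The 4 sinusoidal uptake carriers summed to 942.6, 857.2 and 982.1 FPKM in t-PBS livers and to 873.4, 857.4 and 862.0 FPKM in t-DHEA livers. The t-DHEA sums were nearly equal and lay within the t-PBS range. Each carrier's share of this sum was also computed. Slco1b2 made up 48.92%, 42.90% and 42.25% of it in t-PBS and 54.63%, 50.38% and 49.26% in t-DHEA livers. Slco1a4 made up 5.215%, 5.481% and 7.86% in t-PBS and 5.104%, 4.126% and 4.0% in t-DHEA livers. For both carriers the groups did not overlap in this share, by a small margin in each case, while their CPM overlapped. The shares are parts of the same sum and so depend on each other, and no such share was computed for other genes. These shares were chosen after the values were seen and are given without a test. The shares of Slc10a1 and Slco1a1 overlapped between the groups.

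The values of both canalicular pumps overlapped between the groups. Abcb11 (ENSRNOG00000050860, chromosome 3, 55480024 to 55587946), the main bile salt export pump, had a CPM of 749.2, 750.0 and 808.6 in t-PBS and 733.4, 791.8 and 666.1 in t-DHEA livers. T-DHEA rat 3 was the lowest, and the other t-DHEA livers lay near the t-PBS values. On the log2 scale the difference was -0.075 ± 0.11 (SE), with a 95% interval of -0.32 to 0.17 (adjusted p = 0.990, edgeR). Of the 7 transporters this interval was the narrowest, and its half-width corresponded to a fold-change of 1.18.

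Abcc2 (ENSRNOG00000046727, chromosome 1, 263554453 to 263613252) had a CPM of 1273, 1385 and 1235 in t-PBS and 1412, 1202 and 1439 in t-DHEA livers. The lowest and the highest liver were both t-DHEA. Its log2 fold change was 0.058 ± 0.12 (SE), with a 95% interval of -0.21 to 0.32 (adjusted p = 0.990, edgeR). Together the 2 pumps summed to 370.0, 406.9 and 376.8 FPKM in t-PBS and to 385.0, 363.0 and 379.9 FPKM in t-DHEA livers. The ratio of the summed uptake carriers to this sum was 2.548, 2.107 and 2.606 in t-PBS and 2.269, 2.362 and 2.269 in t-DHEA livers, so the t-DHEA ratios lay inside the t-PBS range. Over the 6 livers the log2 CPM of Abcb11 and Abcc2 had a Pearson r of -0.844, the lowest of the 21 transporter pairs, and these values share libraries and normalisation.

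The basolateral exporters were scarce. Abcc3 (ENSRNOG00000002948, chromosome 10, 82047863 to 82117109) had 67, 68 and 91 counts in t-PBS and 50, 59 and 106 counts in t-DHEA livers. Its CPM was 5.527 ± 1.173 in t-PBS and 5.577 ± 2.266 in t-DHEA (SD, n = 3). The log2 fold change was 0.017 ± 0.28 (SE), with an adjusted p of 0.996 in edgeR. Its 95% interval, -0.63 to 0.66, was the widest of the 7, with a half-width that corresponded to a fold-change of 1.57. Its counts were few and its t-DHEA livers also spread widely, with a coefficient of variation of 40.6%. Slc51a (ENSRNOG00000001765, chromosome 11, 71533078 to 71547476) had 0, 3 and 4 counts in t-PBS and 0 in all t-DHEA livers, which allows up to 0.0770 CPM over that group. Slc51b (ENSRNOG00000028889, chromosome 8, 70930347 to 70932986) was listed at 0 in all 6 livers, which allows up to 0.0377 CPM over all. Rps6 and Rpl8, which most cells express and which were chosen after their values were seen, were also listed at 0 in this table, so a 0 here need not mean a level below that limit. No ratio of the 2 OST subunits could be formed.

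The 3 genes with the highest Pearson r of log2 CPM to Slco1a4 over the 6 livers, among 7150 genes of at least 10 CPM, were P4ha2 (0.983), Ssh3 (0.981) and Txnip (0.975). P4ha2 encodes a collagen prolyl hydroxylase subunit, Ssh3 a cofilin phosphatase and Txnip a thioredoxin-binding arrestin. Their log2 fold changes were -0.13, -0.29 and -0.40 in that order, and they were picked for likeness over the same 6 livers, so these values are no independent result. For Slco1b2 the 3 genes were Acy1 (0.998), Mfsd9 (0.987) and Srrt (0.983). These values are a description over livers that share libraries and groups.

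The rest of the bile acid handling machinery was examined with 4 lists. Of 16 other hepatic transporters tested, 0 were called and the log2 fold changes had a median of 0.12, with 11 positive and 5 negative. The lowest p values in edgeR belonged to Slc29a1, a nucleoside carrier, at a log2 fold change of 0.33 (adjusted p = 0.969), Slc22a7, an organic anion carrier, at 0.21 (adjusted p = 0.974), and Abcg2, a canalicular pump of conjugates and drugs, at 0.53 (adjusted p = 0.986). Abcb1a, a drug efflux pump, had 208.3, 154.8 and 187.3 CPM in t-PBS and 147.2, 186.7 and 183.9 CPM in t-DHEA livers, which overlapped, and was chosen after its values were seen. Its row ran over 291995 bases of chromosome 4, from 22133521 to 22425515, between Crot and Rundc3b. RefSeq on GRCr8 places Abcb4 and Abcb1b as well as Abcb1a between those genes, and which of the 3 the counts of the row came from was not tested.

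Of 17 regulators tested, which held the membrane receptor Fgfr4 and its co-receptor Klb beside transcription factors, 0 were called, with a median of -0.02. Nr1h4, the bile acid receptor FXR that drives Abcb11, had 139.1, 107.7 and 108.8 CPM in t-PBS and 105.5, 98.0 and 99.04 CPM in t-DHEA livers. All t-DHEA livers were below all t-PBS livers, and the log2 fold change of -0.23 ± 0.12 (SE) did not pass the test (adjusted p = 0.974, edgeR). Nr5a2 (LRH-1), a nuclear receptor of bile acid genes, was at -0.21 (adjusted p = 0.973, edgeR) and Ppara, the fatty acid receptor, at -0.18 (adjusted p = 0.986, edgeR).

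Among 15 genes of bile acid synthesis and conjugation, 2 were called higher and 0 lower, with a median of 0.15. Cyp7a1, the rate-limiting enzyme of the classical pathway, had 107.7, 54.05 and 128.2 CPM in t-PBS and 503.0, 130.5 and 259.6 CPM in t-DHEA livers. The t-DHEA livers were all higher, and t-DHEA rat 1 was far above the rest. The log2 fold change of Cyp7a1 was 1.62 ± 0.46 (SE, adjusted p = 0.805, edgeR), and 1.01 without t-DHEA rat 1. Cyp8b1, the sterol hydroxylase that directs synthesis to cholic acid, had 190.9, 228.5 and 196.9 CPM in t-PBS and 173.8, 422.4 and 369.3 CPM in t-DHEA livers, of which t-DHEA rat 1 was the lowest. Its value on the log2 scale was 0.65 ± 0.28 (SE, adjusted p = 0.957, edgeR), and remained called in 1 of the 6 fits with a liver left out. Acox2, a peroxisomal side-chain oxidase, was at 0.22 (adjusted p = 0.969, edgeR).

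Of 14 genes that anchor or traffic canalicular transporters, 1 was called lower and 0 higher, with 12 negative values and a median of -0.08. Ezr, which links membrane proteins to actin and is known from bile duct cells and mesothelium while radixin is the main form in hepatocytes, had 14.37, 11.8 and 12.98 CPM in t-PBS and 7.101, 5.087 and 7.725 CPM in t-DHEA livers. The groups were well apart, at a log2 fold change of -0.98 ± 0.18 (SE, adjusted p = 0.687, edgeR). Beside Ezr, the summed CPM of 5 mesothelial markers was 23.9 to 26.62 in t-PBS and 1.721 to 12.13 in t-DHEA livers, with 4 of the 5 called lower and Lrrn4 at 0 in t-DHEA rat 2. The sum of 6 bile duct markers was 18.95 to 23.6 in t-PBS and 9.501 to 17.15 in t-DHEA livers, with 2 of the 5 tested called lower and Krt7 at 0 in t-DHEA rat 2. Those 2 were Krt19 and Krt7, while Epcam and Sox9 had negative fold changes with groups that overlapped. Cftr went the other way, at 0.36 on the log2 scale, and Spp1, not tested, had 20 counts in t-PBS and 18 in t-DHEA livers. The part of mesothelial and bile duct cells in the value of Ezr was not tested. Slc9a3r2, a PDZ scaffold, was at -0.24 (adjusted p = 0.957, edgeR), under the fold-change of 1.2, and Pdzk1, a scaffold of apical carriers, was at 0.15 (adjusted p = 0.986, edgeR).

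**Figure D4:**
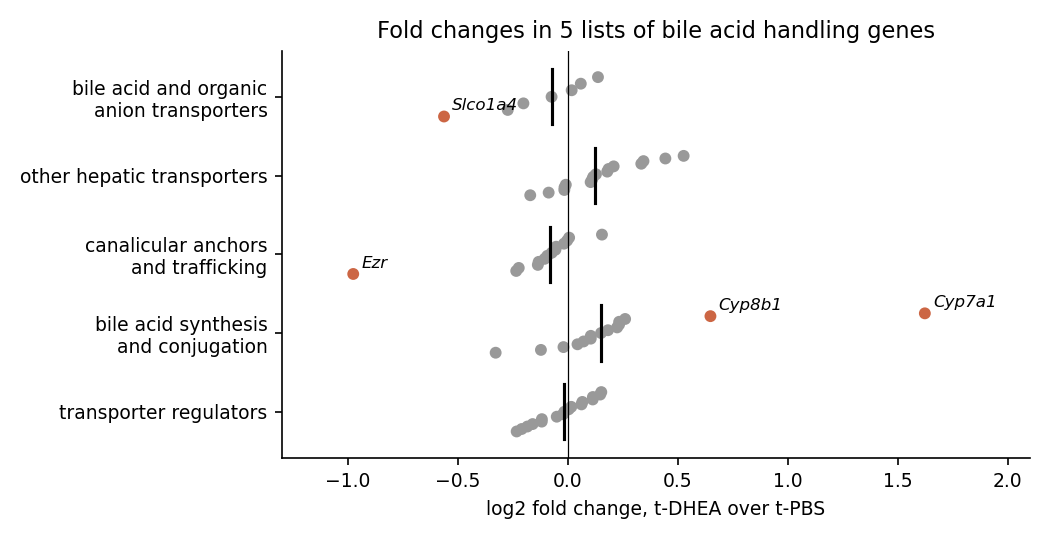
Log2 fold changes of t-DHEA over t-PBS for the tested genes of the 5 lists, with 1 point per gene, coloured and named where called, and a black bar at the median of each list. Cyp7a1 (1.62) and Ezr (-0.98) lie farthest from 0, and the medians run from -0.08 to 0.15.

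Values of other cell types and of liver zones were read beside the transporters. Pericentral markers summed to 3215 to 3927 CPM in t-PBS and 3342 to 4563 CPM in t-DHEA livers, and periportal markers to 5512 to 6004 CPM and 4325 to 6287 CPM. Of 5 pericentral markers 0 were called. Among 5 periportal markers, with 3 positive and 2 negative fold changes, Sds alone was called, at 1.67 on the log2 scale (adjusted p = 0.957, edgeR). Sds had 17.87, 15.63 and 17.13 CPM in t-PBS and 40.21, 10.55 and 110.3 CPM in t-DHEA livers. Of 9 clock genes listed with Dbp, a clock output gene, 4 were called higher, with sums of 253.3 to 366 CPM in t-PBS and 300.5 to 492.9 CPM in t-DHEA livers. The genes of such a list need not peak at the same hour, and their phases were not measured. Of 4 clock genes listed with Arntl, a core clock gene, all had negative fold changes and Arntl itself was called lower, at -0.87 on the log2 scale. Their sums were 73.97 to 111.2 CPM in t-PBS and 59.48 to 72.87 CPM in t-DHEA livers. Dbp had 111.7, 41.74 and 123.0 CPM in t-DHEA rats 1, 2 and 3, and rat 2 was the lowest of the 3 for Cyp7a1 as well. Red cell markers summed to 180.2 to 280.5 CPM in t-PBS and 295.1 to 574.9 CPM in t-DHEA livers. The globins Hba-a2 and Hbb made up nearly all of these sums and were called higher, though the groups overlapped for Hbb. The other markers, Alas2 at 0.38 and Slc4a1 at -0.11 on the log2 scale, were not called and overlapped. The part of time of day, blood content or zonation in the values of the transporters and of Cyp7a1 was not tested.

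**Figure D5:**
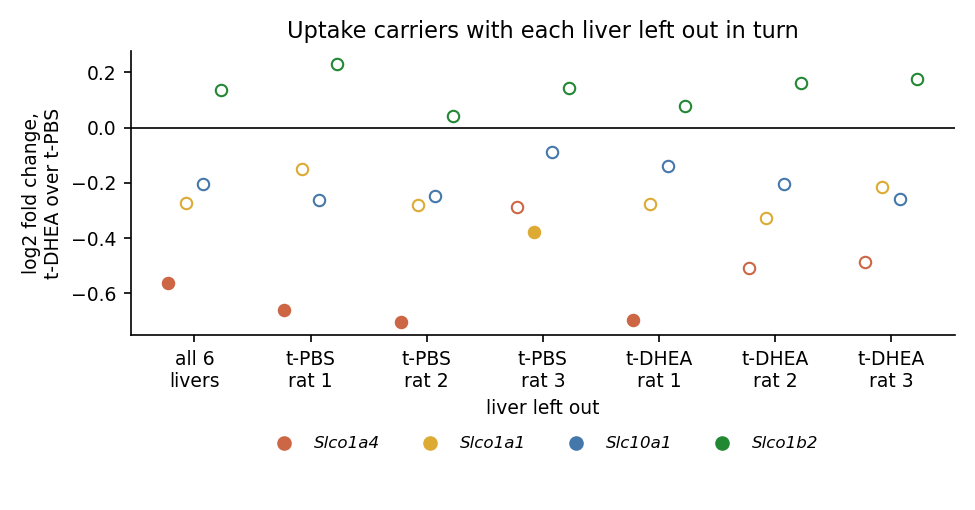
Log2 fold change of the 4 uptake carriers with all 6 livers and with each liver left out in turn, filled where called and open where not. Slco1a4 stays below 0 throughout (-0.71 to -0.29) and is open without t-PBS rat 3, t-DHEA rat 2 or t-DHEA rat 3, while Slco1a1 is filled without t-PBS rat 3 only.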

How the data were processed

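RNA from 6 rat livers was sequenced as paired ends. The authors trimmed and filtered reads with Seqtk, mapped them to Rnor_6.0 with HISAT2 2.0.4 and counted fragments per gene with StringTie 1.3.0. The deposited raw counts carry no normalisation, and the authors derived the FPKM values from them by gene length and depth. The annotation release and the strand setting are not given in the sources used here. The labels gave each liver's group and rat number.

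Counts were tested here with edgeR 4.0.16 in R 4.3.3 (filterByExpr, TMM, quasi-likelihood F-test between the groups, no covariates). Standard errors were derived from the test statistic. CPM values are TMM-normalised, except that floors were taken from library totals. Calls required a fold-change above 1.2 together with an unadjusted p below 0.05, and were repeated at 0.05 after Benjamini-Hochberg adjustment. Although the study ran edgeR on FPKM values, only the raw counts entered it here. Alternatives were DESeq2 1.42.0, limma 3.58.1 on log2(FPKM + 0.1) and log2(FPKM + 1), other scalings, no filter, a replicate block and each liver left out. Start regions were aligned with Biopython 1.88 (match 1, mismatch -1, gap opening -2, extension -0.5).

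The transporters and the lists, which were written from general knowledge, were chosen with earlier results of these data known. Of 147 list entries, 143 matched by name, 1 by an older symbol and 3 had no row. All 10 transporters are named, and up to 3 genes of lowest p from each other list of bile acid handling genes. The 3 genes most like the transporter of lowest p below 0 and above 0 are also named, and any other gene was chosen after its values were seen. Start regions came from RefSeq on GRCr8, where 8 of the 10 transporters matched, all but Abcb11 and Abcc3. Floors cover counting error only. Even the most alike pair of libraries had a chi-square of 15.3 per degree of freedom, so none was counted as a duplicate.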

Additional observations from a re-analysis of the deposited data

How the results depend on the processing

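With 3 livers per group, an effect on a single transporter smaller than a fold-change of about 1.18 (Abcb11) to 1.57 (Abcc3) could not be resolved. No transporter had an adjusted p below 0.05 under any alternative, where the lowest was 0.504 for Slco1a4 in DESeq2. The count of transporters called, 1 with edgeR, was 2 with library totals for scaling and with limma at either pseudocount (Slco1a1 was added), 0 at a fold-change above 1.5 and 0 at an adjusted p below 0.05. With each liver left out in turn it ran from 0 to 1, being 0 without t-DHEA rat 2 or rat 3, and without t-PBS rat 3 the 1 gene called was Slco1a1 and not Slco1a4. The median log2 fold change of the transporters, -0.075, was -0.13 with no filter, where Slc51a entered, and ran from -0.21 to -0.037 with a liver left out. The number called in the 4 other lists, 3 with edgeR, ran from 2 to 6 with a liver left out.

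Abcc3, at 0.017 in edgeR, turned to -0.019 with library totals, to -0.063 and -0.020 in limma with pseudocounts of 0.1 and 1, and to -0.024 with rat number as a replicate block. With a liver left out it ran from -0.36 to 0.20. The other 6 transporters kept their direction under all 13 alternatives. The cause of these changes was not tested. Deviations of rats with the same number had an r of -0.0571, -0.0592 and -0.0551 over genes, and the other pairs ran from -0.0683 to 0.116. Deviations from a mean of 3 livers depend on each other, so these values cannot decide whether the numbers pair the livers. With the block 1 transporter was called, Slco1a4 at -0.53, and 539 genes were called against 604 without it. Over the whole table, DESeq2 called 414 genes, and leaving out a liver gave 514 to 747.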

Other observations

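Carriers of the wider Slco and Abcc families, chosen after their values were seen, are given here as values. Slco2a1, a prostaglandin carrier of endothelial cells, had 376.8 ± 68.07 CPM (SD, n = 3) in t-PBS and 426.4 ± 34.18 CPM in t-DHEA livers. Slco2b1, a sinusoidal carrier of steroid sulphates, had 192.1 ± 25.3 CPM and 206.4 ± 15.09 CPM. Abcc6, a basolateral transporter linked to ATP release and known for loss in pseudoxanthoma elasticum, had 444.7 ± 35.62 CPM and 479.8 ± 21.43 CPM. Their log2 fold changes were 0.18 (adjusted p = 0.986, edgeR), 0.10 (adjusted p = 0.990) and 0.11 (adjusted p = 0.986), so none passed the test. The sterol half-transporters Abcg5 and Abcg8 varied widely within t-PBS, at 22.86 ± 21.36 CPM and 20.25 ± 17.86 CPM, and their log2 fold changes of 0.44 and 0.34 did not pass the test (adjusted p = 0.990 for both, edgeR). Abcc4, a basolateral pump that like Abcc3 is induced in cholestasis, had 5.164 ± 1.053 CPM in t-PBS and 5.576 ± 1.015 CPM in t-DHEA livers. The ileal bile acid carrier Slc10a2 had 3 counts in t-PBS and 4 counts in t-DHEA livers in all.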
